A study of Mus musculus with 12 samples.

Results

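Messenger RNA of TM4, a mouse cell line derived from the testis and labelled as Sertoli cells, was sequenced after 72 h in 100 uM MEHP or in 0.1% DMSO, which served as the control. The labels used here give no share of DMSO for the MEHP libraries. MEHP is a monoester formed when the plasticizer DEHP is hydrolysed in the body. The 6 TM4 libraries, 3 with MEHP and 3 with DMSO, were chosen by their titles from the 12 libraries of the study. The other 6 are those of TM3, a line labelled as Leydig cells, exposed in the same way. They serve to ask where the responses of the lines differed. They also shared the filter and the fit, so the spread behind the TM4 p-values draws on them. Some genes were tested only because of their level in TM3. TM4 is a single established line, so the data describe that line and not Sertoli cells of several animals. Nothing in the labels ties a replicate to a culture of its own, and the p-values below therefore reflect spread among samples that may be technical.

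Sertoli cells line the seminiferous tubule, sustain the germ cells and secrete hormones, carrier proteins and matrix. MEHP is known to activate the PPAR receptors, which switch on genes of fatty acid use, and Sertoli cells are a known target of phthalates in rodents. A cell that folds and secretes much protein depends on chaperones, on the vesicles between endoplasmic reticulum (ER) and Golgi and on new ribosomes, and the transcripts of all 3 systems were among those that changed in TM4.

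The TM4 libraries held 16189922 to 18203115 counts. Levels are given as CPM, the counts of a gene in each 1000000 counts after TMM scaling. A count of 0 allowed a level of up to 0.165 to 0.185 CPM, at 3 counts, where only the error of counting is considered. No pair of replicates was alike within the noise of sampling (chi-square per degree of freedom 3.85 to 11). The first principal component of the TM4 libraries held 41.0% of the variance and placed those with MEHP at 20.8 to 30.1 and those with DMSO at -27.4 to -21.2. The TMM factors also separated the groups, at 1.0343 to 1.0424 with MEHP and 0.97173 to 0.97647 with DMSO. The scaling therefore bears on the direction of small changes. Where another scaling ended a call or moved a value by over 1.5 times, this is given beside the value for the genes named by rule. For other list members it is not given gene by gene. Coordinates are those of the mm10 build in the authors' table.

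The Sertoli label was checked against 24 markers. Of these, 11 had at most 3 counts in every TM4 library and Fshr, Dmrt1, Cst9 and Cst12 had none, among them the gene of the receptor for follicle-stimulating hormone. Wt1, a factor of Sertoli cells, stood at 0.0566 ± 0.0574 CPM with MEHP and 0.0776 ± 0.0858 CPM with DMSO (SD, n = 3 each). Gata4 stood at 50.4 ± 1.71 CPM with MEHP and 52.0 ± 1.16 CPM with DMSO, and Sox9 at 1.96 ± 0.0627 CPM with MEHP and 2.37 ± 0.981 CPM with DMSO. The markers thus went against the label in part, and the cells are called TM4 cells below. Summed markers of myoid cells and fibroblasts stood at 5433 to 5843 CPM with MEHP and 7907 to 8725 CPM with DMSO. Most of the sum was Col1a1 (1759 ± 78.0 CPM with MEHP and 2827 ± 123 CPM with DMSO) and Col1a2 (3329 ± 112 CPM with MEHP and 4343 ± 230 CPM with DMSO), while Pdgfrb stood at 34.0 ± 2.79 CPM with MEHP and 31.3 ± 2.37 CPM with DMSO, and Tcf21 was at 0. The fall of Col1a2, a log2 fold change of -0.38, was put at -0.06 after quantile normalization and lost its call (limma-voom, adjusted p = 0.703). In a bulk sample, fewer cells of a type and less RNA per cell cannot be told apart.

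The response was broad and mostly shallow. MEHP changed 4856 of the 15700 genes tested, or 30.9% (edgeR quasi-likelihood test, adjusted p under 0.05). Of all genes tested 2503 rose, or 15.9%, and 2353 fell, or 15.0%. The median absolute log2 fold change of the changed genes was 0.36, with quartiles of 0.25 and 0.55. A change of at least 2-fold was seen in 227 genes that rose (1.45% of all genes) and 141 that fell (0.898%). With the 6 TM4 libraries fitted alone 4170 of 13842 genes tested changed, 266 of them at least 2-fold. In 6086 genes, 38.8%, no MEHP library overlapped a DMSO library. The share of the changed genes that rose was 51.5%, and it was 45.1% with RLE factors, 55.4% with upper-quartile factors and 44.9% after length and GC content were corrected for. The median of all genes lay at 0.00 and moved by less than 0.1 under every scaling tried.

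**Figure D1:**
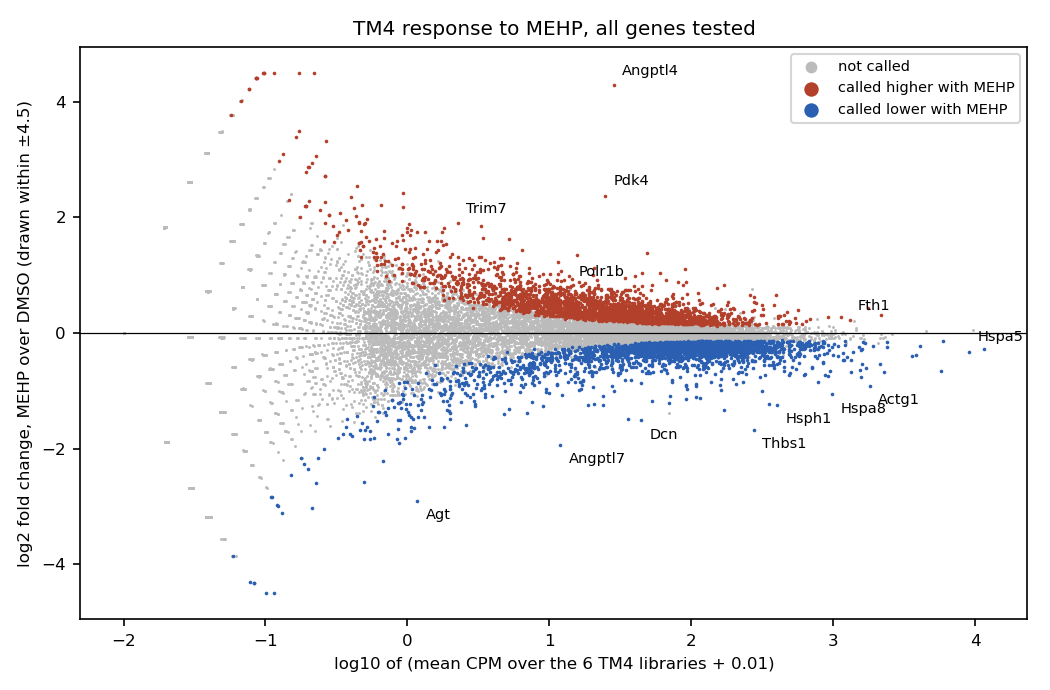
Each point is a gene tested in TM4, with its mean level in CPM on a log10 axis and its log2 fold change with MEHP over DMSO, red where called higher and blue where called lower, and points past the limits drawn at them. The steep fans at the left are genes with few counts, whose fold changes are not read. Most called genes lie within a log2 fold change of 1, while Angptl4 at 4.29 stands far from the rest at its level. Agt is labelled at -2.90, but its MEHP libraries reach down to the limit of 3 counts.

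The balance of rises and falls differed with the level of a transcript. In the lowest quintile of genes by mean CPM per kilobase, 185 rose and 107 fell of 3140. The next 2 quintiles held 532 and 730 that rose, against 226 and 414 that fell. In the highest quintile, where genes exceeded 17.9 CPM per kilobase, the order was turned, with 447 that rose and 927 that fell. Gene length showed the same shape, with 295 that rose and 183 that fell among the shortest models (up to 1758 bases) and 419 that rose and 830 that fell among the longest (over 6851 bases). Level and length were not separated from each other. The 10 most abundant genes took 5.82%, 5.76% and 5.77% of the counts with MEHP, and 6.40%, 6.37% and 6.34% with DMSO. These groups do not overlap, and their exact permutation p of 0.10 (two-sided) is the smallest that 3 against 3 samples can give.

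**Figure D2:**
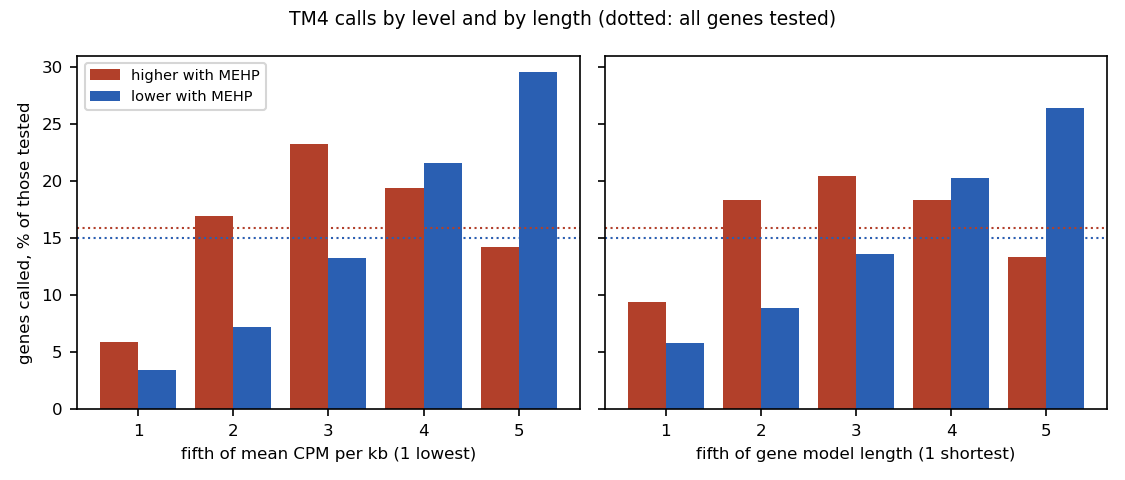
Bars give the share of genes called higher (red) and lower (blue) with MEHP in TM4, by quintile of mean CPM per kilobase (left) and of gene model length (right), with dotted lines at the shares of all genes, 15.9% and 15.0%. Calls of higher genes outnumber lower ones in the first 3 quintiles of both panels, and in quintiles 4 and 5 lower ones are more frequent.

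By gene type, 2351 of 12595 protein-coding genes rose and 2151 fell. Among 55 genes annotated as bidirectional promoter lncRNA, which start close to another gene on the opposite strand, 7 rose (12.7%) and 0 fell. Of 461 models of the TEC type, which await experimental proof, 9 rose (1.95%) and 36 fell (7.81%). Of 497 antisense genes 18 rose (3.62%) and 33 fell (6.64%). The shares of these 3 noncoding types lie under those of all genes, 15.9% and 15.0%, in both directions. No source used here gives the strand setting of the counting, and reads of a gene and of its antisense partner cannot be told apart.

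Among genes with groups apart and 2 CPM in the higher group, Angptl4 and Pdk4 rose the most. Angptl4, an inhibitor of lipoprotein lipase, had 50.4, 56.8 and 54.8 CPM with MEHP, against 2.84, 2.89 and 2.53 CPM with DMSO, a log2 fold change of 4.29 ± 0.10 (SE; edgeR, adjusted p = 3.49e-25). Pdk4, a kinase gene that spares glucose by braking pyruvate dehydrogenase, had 39.2, 47.4 and 37.7 CPM with MEHP and 8.08, 8.66 and 7.14 CPM with DMSO (2.38 ± 0.10). Trim7 (ENSMUSG00000040350, chromosome 11, 48826140 to 48852209), a ubiquitin ligase gene, had 4.39, 3.85 and 2.47 CPM with MEHP and 0.947, 1.19 and 0.696 CPM with DMSO, and rose by 1.90 ± 0.34 on the log2 scale (edgeR, adjusted p = 6.53e-05). Phf11d (ENSMUSG00000068245, chromosome 14, 59347407 to 59365470), whose relatives respond to interferon, had 6.47, 8.52 and 8.56 CPM with MEHP and 2.34, 2.15 and 3.16 CPM with DMSO, a log2 fold change of 1.63 ± 0.23. In each of these genes the lowest MEHP library stood above the highest DMSO library.

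Other rises were seen at low and at high levels. Senp8, which removes the ubiquitin-like protein NEDD8, stood at 2.77 ± 0.360 CPM with MEHP and 0.950 ± 0.112 CPM with DMSO (log2 fold change 1.54 ± 0.24). The glycosyltransferase gene Extl1 rose by 1.52 ± 0.24. Fendrr (chromosome 8, 121054882 to 121083110), a long noncoding RNA next to Foxf1, had 10.9, 8.85 and 8.27 CPM with MEHP and 3.47, 2.72 and 4.17 CPM with DMSO, and rose by 1.44 ± 0.16. Rpp38, a subunit of the ribonuclease that trims tRNA, rose by 1.30 ± 0.25. Etfb, an electron carrier of fatty acid oxidation, had 6.76, 6.05 and 6.09 CPM with MEHP and 3.47, 2.43 and 2.47 CPM with DMSO (1.18 ± 0.17). Lpcat3 (chromosome 6, 124663027 to 124704418), which puts polyunsaturated fatty acids into membrane phospholipids, had 81.1, 83.4 and 78.6 CPM with MEHP and 38.7, 40.1 and 39.2 CPM with DMSO (1.04 ± 0.06). It was 1 of 2 genes that rose among 32 of phospholipid synthesis and remodelling, where 2 fell. In absolute CPM the largest rises included both ferritin chains, the iron store of the cell. Ftl1 had 2170, 2308 and 2679 CPM with MEHP and 1890, 1891 and 1969 CPM with DMSO (0.32 ± 0.06), or 0.57 with limma-voom after quantile normalization. Fth1 stood at 0.22 ± 0.06, and lost its call without TM4 MEHP replicate 3 (edgeR, adjusted p = 0.0528), while quantile normalization put it at 0.41.

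Several of the largest falls were of secreted proteins. Agt (ENSMUSG00000031980, chromosome 8, 124556534 to 124569706), the precursor of angiotensin, had 0.475, 0.165 and 0.172 CPM with MEHP, against 1.70, 1.98 and 2.47 CPM with DMSO (log2 fold change -2.90 ± 0.47; edgeR, adjusted p = 2.04e-05). The values of 0.165 and 0.172 CPM lie at the limit of 3 counts, so the size of the fall of Agt is uncertain. Angptl7, an angiopoietin-like protein, had 4.81, 4.89 and 5.11 CPM with MEHP and 19.5, 16.8 and 20.5 CPM with DMSO (-1.93 ± 0.10). Dcn, the proteoglycan decorin, had 21.2, 22.1 and 25.6 CPM with MEHP and 61.4, 64.2 and 70.8 CPM with DMSO (-1.51 ± 0.07). The groups of these 3 genes did not overlap.

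Selenop, which carries selenium in plasma, fell by 1.24 ± 0.07 on the log2 scale, with groups apart. The chemokine gene Cxcl12 had 11.9, 17.1 and 13.2 CPM with MEHP and 32.3, 34.8 and 33.4 CPM with DMSO (-1.25 ± 0.08). Crispld2, a secreted protein gene that responds to glucocorticoids, had 4.03, 4.51 and 3.04 CPM with MEHP and 10.5, 10.2 and 9.67 CPM with DMSO (-1.39 ± 0.19). Fhl1, a LIM domain protein of muscle, had 19.3, 18.9 and 18.3 CPM with MEHP and 51.5, 50.9 and 54.7 CPM with DMSO (-1.48 ± 0.07). Peg10, an imprinted gene of retroviral origin, fell by 1.33 ± 0.07, and the tenascin gene Tnr by 1.60 ± 0.31. Gna14, a G protein subunit gene, stood at -1.33 ± 0.39 and lost its call without TM4 DMSO replicate 1 (edgeR, adjusted p = 0.0703).

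Transcripts of the cytosolic heat shock system fell. This system folds proteins through HSP70 and HSP90 and is driven by the heat shock factor HSF1. Of 21 heat shock factor targets tested 14 fell and 1 rose, with a median log2 fold change of -0.24, against 15.0% that fell and 15.9% that rose of all genes. In the highest quintile by level 29.5% of genes fell and 14.2% rose. Counts of this list and of those below are to be read against the shares of all genes. They were not matched for level or length, apart from a split of the Zfp genes by level. Across the other scalings, filters, tests and left-out libraries 10 to 15 of the 21 targets fell, with the test against a fold of 1.2 (glmTreat) set apart. That test cut the calls of all genes from 4856 to 1185. Hsph1 (ENSMUSG00000029657, chromosome 5, 149614287 to 149636376), the exchange factor HSP110, had 240, 236 and 244 CPM with MEHP and 561, 580 and 555 CPM with DMSO (log2 fold change -1.24 ± 0.05; edgeR, adjusted p = 6.94e-19). Hspa8 (ENSMUSG00000015656, chromosome 9, 40800984 to 40810087), the constitutive HSP70, had 581, 676 and 641 CPM with MEHP and 1304, 1361 and 1292 CPM with DMSO (-1.06 ± 0.05; edgeR, adjusted p = 7.20e-16). Both stood lower in every MEHP library than in any DMSO library. Hsp90aa1, the inducible HSP90, fell by 0.58 ± 0.05, and the HSP40 genes Dnajb1 and Dnaja1, which hand clients to HSP70, fell by 0.55 ± 0.06 and 0.50 ± 0.05. Stip1, which links HSP70 with HSP90, fell by 0.42 ± 0.05. The member that rose was Hsf1 itself, at 122, 110 and 114 CPM with MEHP and 86.5, 89.6 and 91.5 CPM with DMSO (0.37 ± 0.06; edgeR, adjusted p = 1.87e-05).

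The chaperones of the ER, which fold secreted proteins, fell as well. Of 24 genes of ER chaperones and folding 15 fell and 1 rose, with a median of -0.23. Hspa5, the HSP70 of the ER, had 7839, 7331 and 9104 CPM with MEHP and 9875, 9705 and 10675 CPM with DMSO (-0.32 ± 0.06; edgeR, adjusted p = 0.000180). The lectin chaperone gene Calr had 3017, 2971 and 3311 CPM with MEHP and 4026, 4164 and 4115 CPM with DMSO (-0.40 ± 0.05). Sdf2l1 fell by 0.47 ± 0.09, the disulfide isomerase genes Pdia4, Pdia3 and Pdia6 by 0.42 ± 0.05, 0.34 ± 0.05 and 0.28 ± 0.05, and Dnajc3 by 0.33 ± 0.05. The genes of ER-associated degradation, which exports misfolded proteins, fell in 7 of 16 cases and rose in 1. They included Selenos at -0.55 ± 0.08, Edem3 at -0.50 ± 0.06 and the ubiquitin ligase gene Syvn1 at -0.41 ± 0.05, while its partner Sel1l rose by 0.30 ± 0.05. The sensor gene Atf6 rose by 0.18 ± 0.06 with libraries that overlapped, and Xbp1 had 227, 230 and 252 CPM with MEHP and 237, 240 and 252 CPM with DMSO. These abundant genes were sensitive to the scaling. Limma-voom after quantile normalization put Hspa5 at -0.14, Calr at -0.16, Pdia4 at -0.28 and Pdia3 at -0.18, all still called, and left 10 chaperone and 4 degradation genes that fell.

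Promoters of these genes are known to carry the ER stress response element (ERSE), which the factors ATF6 and XBP1 read together with NF-Y. The letters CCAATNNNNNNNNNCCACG were searched on both strands in the RefSeq promoters of build GRCm38.p6, from 250 bases before to 50 after each start. Of 27025 gene symbols with a promoter there, 37 held a match, or 0.137%. In the chaperone list 7 of 19 genes with a promoter did. Of 16 tested genes with a match 9 fell and 2 rose, with a median log2 fold change of -0.23, where of all genes 15.0% fell and 15.9% rose. Only 10485 tested symbols had a promoter to search, and their own shares are not given here. Of protein-coding genes 17.1% fell and 18.7% rose. These 16 include the 7 of the chaperone list, so their count is not separate from that of the list. Outside it Syvn1, Pan2 and Hnrnpa3 fell, and Zfp57 and Acacb rose. The windows below are those of the chaperone and degradation genes that fell and held a match, 5′ to 3′ on the strand of the gene, with the match in capitals. They come from chr2:34772015-34772053 (Hspa5, plus strand), chr8:84847065-84847103 (Calr, minus strand), chr14:118937817-118937855 (Dnajc3, plus strand), chr12:17266481-17266519 (Pdia6, plus strand), chr10:86705523-86705561 (Hsp90b1, minus strand), chr15:88819510-88819548 (Creld2, plus strand) and chr19:6046522-6046560 (Syvn1, plus strand). The match ended 25 to 143 bases before the RefSeq start. The model of Hspa5 in the authors' table starts further upstream, so its match lies inside that model. In Calr, Hsp90b1 and Creld2 it lay in the reverse orientation.
Hspa5: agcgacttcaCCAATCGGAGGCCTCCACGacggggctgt
Calr: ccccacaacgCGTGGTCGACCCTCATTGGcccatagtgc
Dnajc3: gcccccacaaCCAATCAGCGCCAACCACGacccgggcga
Pdia6: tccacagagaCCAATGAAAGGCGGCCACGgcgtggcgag
Hsp90b1: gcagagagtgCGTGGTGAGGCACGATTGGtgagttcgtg
Creld2: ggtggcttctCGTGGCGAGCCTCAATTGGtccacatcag
Syvn1: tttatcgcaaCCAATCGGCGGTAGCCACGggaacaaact

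Among these, Hsp90b1 fell by 0.22 ± 0.05 and Creld2 by 0.16 ± 0.06, Creld2 close to the threshold (edgeR, adjusted p = 0.0494) and with libraries that overlapped. Canx, a chaperone gene with a match, stood at -0.08 ± 0.05 and did not pass (edgeR, adjusted p = 0.187). The genes with a match that rose were Zfp57 and Acacb, an acetyl-CoA carboxylase gene, at 0.28 and 0.38. For the heat shock element, searched as GAANNTTCNNGAA, 0.662% of symbols held a match, and of 60 tested genes with one 11 rose and 11 fell, with a median of 0.01. Among the heat shock factor targets 4 of 17 with a promoter held it, of which Hsph1 (-1.24) and Chordc1 (-0.16) fell and Hspd1 (-0.11) and Hspe1 (-0.02) did not pass. A match is a run of letters and not evidence of binding.

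Downstream of the ER, the coats and cargo receptors of vesicles fell as well. Of 31 genes of COPI and COPII vesicles 21 fell and 1 rose, with a median of -0.19. Sar1a, the GTPase that starts a COPII coat, had 243, 263 and 263 CPM with MEHP and 335, 365 and 337 CPM with DMSO (-0.43 ± 0.05; edgeR, adjusted p = 1.37e-07). The coat gene Sec24b stood at -0.40 ± 0.06 and Kdelr3, which returns ER proteins from the Golgi, at -0.36 ± 0.05. The translocon, signal peptidase and N-glycosylation list held 17 that fell and 4 that rose of 31. Those that fell included the oligosaccharyltransferase subunits Ddost at -0.32 ± 0.05 and Rpn1 at -0.24 ± 0.05 and the channel gene Sec61a1 at -0.22 ± 0.05. Those that rose were Mogs, which trims the attached sugar, and Alg1, Alg2 and Alg5, which build the sugar chain, at 0.24 to 0.52. With limma-voom after quantile normalization 8 coat genes and 2 of the translocon list fell, so these counts rest on the scaling. Ddost was put at -0.19 there.

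**Figure D3:**
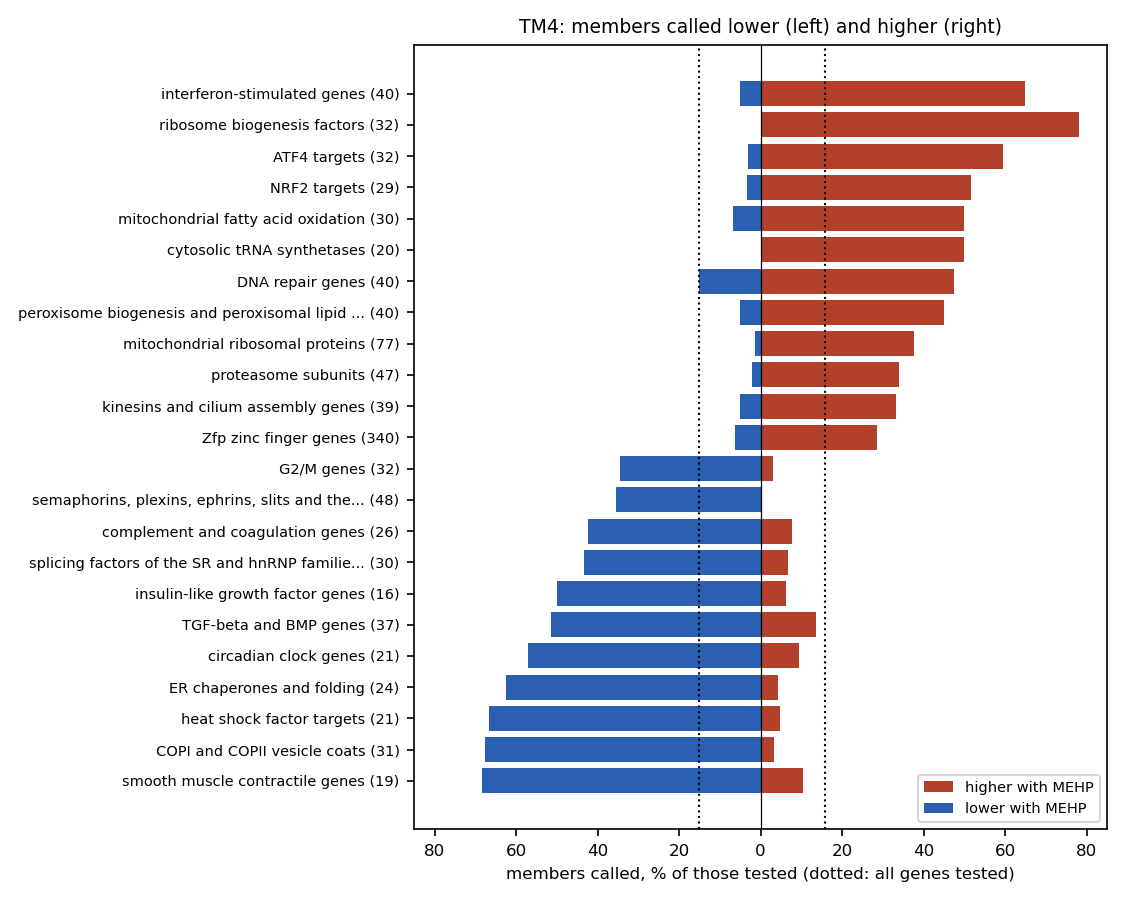
Bars give, for 23 gene lists in TM4, the share of tested members called lower (left, blue) and higher (right, red) with MEHP, with the number tested in brackets and dotted lines at the shares of all genes, 15.0% and 15.9%. Ribosome biogenesis and interferon-stimulated genes lie far to the right, and smooth muscle, vesicle coat, heat shock and ER chaperone genes far to the left.

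Transcripts for making ribosomes rose. Of 32 ribosome biogenesis factors 25 rose and 0 fell, with a median of 0.26. Under the other scalings, filters, tests apart from glmTreat and left-out libraries 17 to 26 rose. With glmTreat against a fold of 1.2, Rrs1 lost its call (edgeR glmTreat, adjusted p = 0.0509). Polr1b (ENSMUSG00000027395, chromosome 2, 129100995 to 129126594), the second subunit of the polymerase that transcribes ribosomal RNA, had 19.2, 16.9 and 16.9 CPM with MEHP and 10.1, 9.68 and 10.7 CPM with DMSO (0.80 ± 0.10; edgeR, adjusted p = 1.77e-07). Grwd1, a chaperone of a ribosomal protein, stood at 0.59 ± 0.10. The small-subunit factor gene Nop14 had 83.8, 89.7 and 92.1 CPM with MEHP and 64.4, 62.3 and 66.5 CPM with DMSO (0.46 ± 0.06). Bop1 and Rrs1, of the large subunit, rose by 0.45 ± 0.07 and 0.43 ± 0.08. All of these had groups that did not overlap. The ribosomal proteins themselves did not share a direction. Of 80 cytosolic ones 5 rose and 7 fell, with a median of -0.02. These counts moved from 34 and 3 after quantile normalization to 5 and 20 with the length and GC correction, so the direction of this family is not fixed by the data. Leaving out a library also moved them, to 3 and 2 without TM4 DMSO replicate 2 and to 2 and 9 without TM4 MEHP replicate 3.

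The mitochondrial ribosome, which translates the mitochondrial genome, had 29 of 77 protein genes that rose and 1 that fell, with a median of 0.19. Mrpl24 had 44.7, 54.0 and 51.8 CPM with MEHP and 30.6, 29.4 and 31.4 CPM with DMSO (0.72 ± 0.09; edgeR, adjusted p = 2.36e-07). Mrps2 rose by 0.78 ± 0.10, and the member that fell was Mrps30, at -0.31 ± 0.07. The count that rose was 14 without TM4 DMSO replicate 1, 16 without TM4 MEHP replicate 3 and 17 after quantile normalization. Cytosolic tRNA synthetases, which charge tRNA with amino acids, rose in 10 of 20 cases and fell in 0, or in 18 after quantile normalization. Lars and Wars, for leucine and tryptophan, rose by 0.62 ± 0.06 and 0.60 ± 0.06. Of 47 proteasome genes 16 rose and 1 fell, among them the assembly factor Psmg2 at 0.65 ± 0.09, and 10 rose without TM4 DMSO replicate 2. Splicing factors of the SR and hnRNP families went the other way, with 13 that fell and 2 that rose of 30, and 7 that rose after quantile normalization. Srsf6 had 103, 107 and 121 CPM with MEHP and 150, 150 and 154 CPM with DMSO (-0.46 ± 0.06), and Hnrnpl stood at -0.39 ± 0.05.

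Transcripts of the mitochondrial genome took 1.51%, 1.48% and 1.46% of the counts with MEHP and 1.66%, 1.72% and 1.69% with DMSO. The exact permutation p of 0.10 (two-sided) is again the smallest possible. Of 12 protein genes of this genome tested 6 fell and 1 rose, with a median of -0.46. The complex I gene mt-Nd5 had 766, 667 and 629 CPM with MEHP and 1178, 1154 and 1140 CPM with DMSO (-0.75 ± 0.06; edgeR, adjusted p = 2.55e-11). The other falls were those of mt-Nd6 (-0.80 ± 0.06), mt-Cytb (-0.73 ± 0.05), mt-Nd4 (-0.70 ± 0.05), mt-Nd4l and mt-Co1. Mt-Nd4l, at -1.10 ± 0.33, lost its call without TM4 DMSO replicate 2 or TM4 MEHP replicate 2 (edgeR, adjusted p = 0.0884 to 0.102). The oxidase gene mt-Co1 had 10617, 10514 and 10345 CPM with MEHP and 12425, 13022 and 12671 CPM with DMSO (-0.28 ± 0.05), but stood at 0.00 after quantile normalization. The ribosomal RNAs of the same genome went the other way, mt-Rnr1 at 0.32 ± 0.05 and mt-Rnr2 at 0.25 ± 0.05, or 0.42 after quantile normalization. Captured RNA was selected by its poly-A tail, and the poly-A state of these transcripts was not measured. Nuclear genes of the respiratory chain fell in 2 and rose in 6 of 73 cases.

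Zinc finger genes of the Zfp names, many of which repress retroviral and other sequences through KRAB domains, leaned toward rises. Of 340 tested 97 rose and 21 fell, with a median of 0.20. Under the other scalings, filters, tests apart from glmTreat and left-out libraries 68 to 105 rose. The genes that rose were spread over the chromosomes, with 23 of 85 on chromosome 7, 12 of 30 on chromosome 13 and 10 of 19 on chromosome 8. The lean was largest at low levels. In the lowest 2 quintiles by mean level 62 of 199 Zfp genes rose and 2 fell, with a median of 0.35, where among all 6280 genes of these quintiles 717 rose and 333 fell, with a median of 0.05. In the other quintiles 35 of 141 rose and 19 fell, with a median of 0.07, where among all 9420 genes 1786 rose and 2020 fell, with a median of -0.01. Zfp617 (chromosome 8, 71908635 to 71934629) had 7.83, 8.03 and 8.78 CPM with MEHP and 3.41, 3.57 and 3.67 CPM with DMSO (1.21 ± 0.15; edgeR, adjusted p = 2.34e-07). Zfp112 had 3.14, 3.35 and 3.16 CPM with MEHP and 1.07, 1.36 and 1.45 CPM with DMSO (1.31 ± 0.24), and Zfp93 and Zfp788 rose by 1.27 ± 0.27 and 1.23 ± 0.21. The libraries of both groups stood apart in Zfp617 and Zfp112. Many of these genes are near-identical copies, between which the authors' counting could split reads, so the value of a single one is uncertain. Zfp354a lost its call without TM4 MEHP replicate 1 (edgeR, adjusted p = 0.0594).

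Other transcription factors fell more often than they rose. The authors' table gives a factor family for 974 of the genes tested. Without the C2H2 zinc fingers, 80 of 536 rose (14.9%) and 142 fell (26.5%), against 15.9% and 15.0% of all genes. The share that rose was thus near that of all genes. Of the longest gene models 26.4% fell, and of the highest quintile by level 29.5%. The factors were not matched for length or level. Of 20 fork-head factors 8 fell and 2 rose, and of 44 basic helix-loop-helix factors 12 fell and 2 rose. Foxc1 (chromosome 13, 31806633 to 31812476), a mesenchymal fork-head factor, had 137, 157 and 140 CPM with MEHP and 263, 266 and 269 CPM with DMSO (-0.88 ± 0.06; edgeR, adjusted p = 2.12e-13). Nr4a1, an orphan nuclear receptor induced by stimuli, had 70.5, 81.1 and 65.8 CPM with MEHP and 147, 169 and 155 CPM with DMSO (-1.12 ± 0.07). Tsc22d3, a glucocorticoid-induced factor, fell by 0.71 ± 0.06, the Notch target Hes1 by 0.81 ± 0.17 and Sp4 by 0.84 ± 0.11. Rises outside the C2H2 zinc fingers included the THAP gene Thap2, at 1.07 ± 0.11. Of 18 gonadal factors 6 fell and 0 rose. The oestrogen receptor gene Esr1 had 73.5, 71.5 and 71.8 CPM with MEHP and 117, 112 and 112 CPM with DMSO (-0.66 ± 0.06), and Gata6 stood at -0.39 ± 0.06.

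Clock genes time transcription over the day, and of 21 tested 12 fell and 2 rose, with a median of -0.25. Per2 (chromosome 1, 91415982 to 91459324), a repressor of the loop, had 7.24, 4.67 and 6.78 CPM with MEHP and 12.5, 13.0 and 12.5 CPM with DMSO (-1.02 ± 0.18; edgeR, adjusted p = 8.86e-05). Per1 had 168, 174 and 155 CPM with MEHP and 301, 297 and 299 CPM with DMSO (-0.85 ± 0.06). The output factors Tef and Dbp, which bind D-box elements, fell by 0.85 ± 0.06 and 0.52 ± 0.09, and the repressor Cry1 by 0.49 ± 0.07. The rises were those of Nfil3, which competes for the same elements, at 0.33 ± 0.06, and of Per3, at 0.23 ± 0.08 with libraries that overlapped. The labels give a single time, 72 h, and no hour of day.

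**Figure D4:**
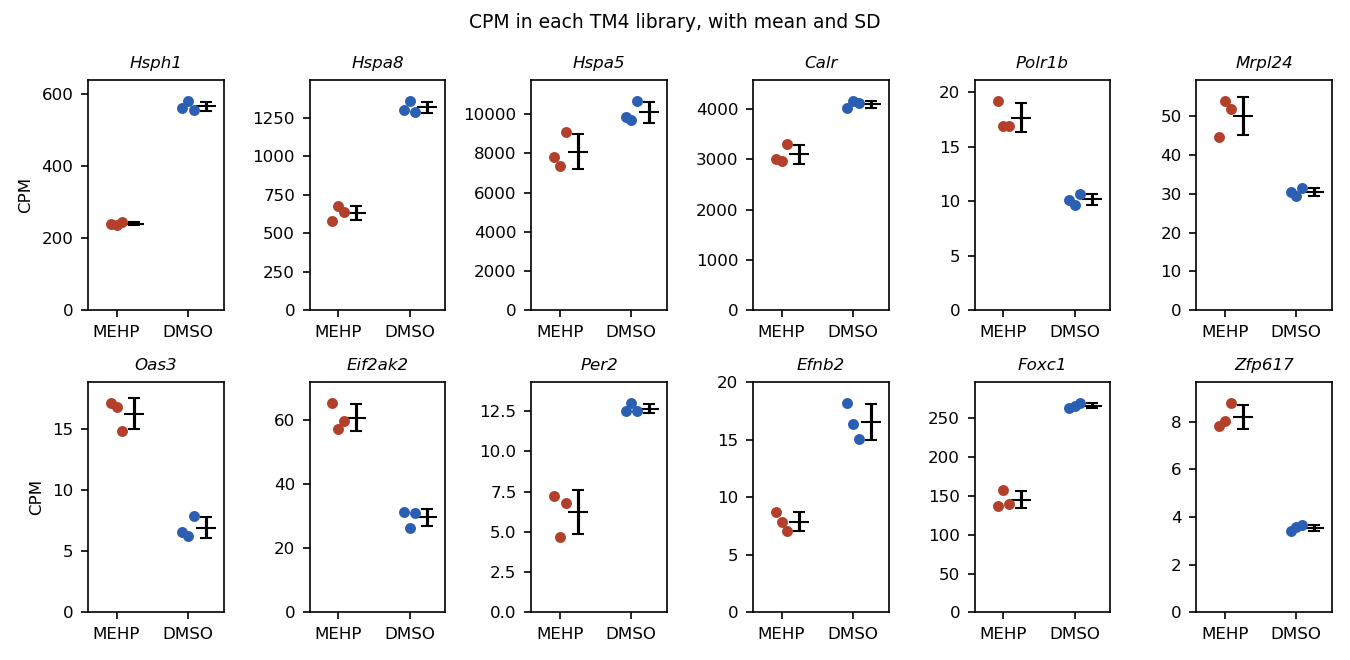
Points give the CPM of 12 genes in each TM4 library, MEHP on the left and DMSO on the right of each panel, with the mean and SD of 3 libraries beside them. In every panel the groups are apart. Hsph1, Hspa8, Hspa5, Calr, Per2, Efnb2 and Foxc1 are lower with MEHP, and Polr1b, Mrpl24, Oas3, Eif2ak2 and Zfp617 are higher.

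Of 40 interferon-stimulated genes, which cells switch on against viruses, 26 rose and 2 fell, with a median of 0.49. Oas3 (chromosome 5, 120753098 to 120777661), a sensor of double-stranded RNA, had 17.1, 16.8 and 14.8 CPM with MEHP and 6.57, 6.28 and 7.90 CPM with DMSO (1.23 ± 0.14; edgeR, adjusted p = 4.31e-08). Eif2ak2, the kinase that stops translation on double-stranded RNA, had 65.1, 57.0 and 59.7 CPM with MEHP and 31.3, 26.4 and 31.0 CPM with DMSO (1.04 ± 0.07). Within the family the IFIT genes did not follow. Ifit1 had 109, 136 and 121 CPM with MEHP and 151, 167 and 164 CPM with DMSO (-0.40 ± 0.07), Ifit2 fell by 0.31 ± 0.07, and Ifit3 stood at -0.05 ± 0.11 and did not pass. Gbp7, at 1.17 ± 0.40, lost its call when MEHP replicate 1 or either of DMSO replicates 1 and 2 of TM4 was left out (edgeR, adjusted p = 0.0721 to 0.172). Summed leukocyte markers stood at 14.2 to 15.8 CPM with MEHP and 10.2 to 11.6 CPM with DMSO, mostly from Cd14 and Cd68. Of the 9 markers Cd3e, Itgam and Adgre1 were at 0 in every library, Csf1r had 27 counts with MEHP and 26 with DMSO, Lyz2 had 4 in each group, and Ptprc had 3 with MEHP and 0 with DMSO. Their part in the result was not tested.

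The interferon-stimulated response element was searched as GAAANNGAAA on both strands, and 3.99% of symbols held a match. Among the listed genes 17 of 30 with a promoter did. Over all 387 tested genes with a match, the listed ones included, 93 rose and 58 fell, with a median of 0.06. Of all genes 15.9% rose and 15.0% fell, and of protein-coding genes 18.7% and 17.1%. The shares over the 10485 tested symbols with a promoter are not given here. The windows of 3 genes that rose and of Ifit1, which fell, are shown because it holds the same letters, with matches in capitals. They come from chr5:120777715-120777744 (Oas3, minus strand), chr8:71537577-71537612 (Bst2, minus strand), chr11:48871425-48871460 (Irgm1, minus strand) and chr19:34640775-34640823 (Ifit1, plus strand), all from build GRCm38.p6. In Bst2 and Irgm1 a pair of matches overlap, and in Ifit1 they lie in the reverse orientation. Matches of this element and of the heat shock element overlapped in 2 promoters, and neither overlapped an ERSE.
Oas3: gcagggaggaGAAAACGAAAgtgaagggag
Bst2: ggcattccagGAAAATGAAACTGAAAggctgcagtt
Irgm1: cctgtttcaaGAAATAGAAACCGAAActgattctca
Ifit1: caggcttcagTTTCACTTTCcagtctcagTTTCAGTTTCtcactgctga

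Bst2, which tethers budding viruses, and Irgm1, an immunity GTPase, rose by 0.52 and 0.48. Antigen presentation by MHC class I showed 8 genes that rose and 2 that fell of 20, with 5 that rose after the length and GC correction. The immunoproteasome genes Psmb9 and Psmb8, which cut peptides for display, rose by 0.67 ± 0.17 and 0.62 ± 0.14, and the peptide carrier Tap1 had 80.2, 78.0 and 79.8 CPM with MEHP and 67.2, 61.6 and 61.3 CPM with DMSO (0.32 ± 0.06). The 2 that fell were Calr and Pdia3, also members of the ER list. Of 26 complement and coagulation genes 11 fell and 2 rose, with a median of -0.31. C3, the hub of complement, had 1.13, 1.54 and 1.21 CPM with MEHP and 3.35, 2.94 and 1.96 CPM with DMSO (-1.08 ± 0.19; edgeR, adjusted p = 4.43e-05). Plau, a protease that activates plasminogen, fell by 0.81 ± 0.07. Cd46, a membrane inhibitor of complement, rose by 1.16 ± 0.27.

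Guidance and growth factor genes fell more often than they rose in several families. Semaphorins, plexins, ephrins, slits and their receptors, which steer cells by contact or secreted cues, fell in 17 of 48 cases (35.4%) and rose in 0. Their median was -0.16. Of all genes 15.0% fell and 15.9% rose, while of the longest gene models 26.4% fell and of the highest quintile by level 29.5%. The ligand gene Efnb2 (chromosome 8, 8617434 to 8661242) had 8.72, 7.86 and 7.12 CPM with MEHP and 18.2, 16.4 and 15.1 CPM with DMSO (-1.07 ± 0.10; edgeR, adjusted p = 1.35e-09). Slit3 had 83.7, 68.0 and 73.8 CPM with MEHP and 153, 130 and 135 CPM with DMSO (-0.89 ± 0.07). The receptors Epha4 and Plxna2 fell by 0.83 ± 0.17 and 0.82 ± 0.14. Nrp1, at -1.16 ± 0.31, lost its call without TM4 DMSO replicate 2 or TM4 MEHP replicate 2 (edgeR, adjusted p = 0.0562 to 0.0823) and with the TM4 libraries alone (0.0544).

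Of 37 TGF-beta and BMP genes 19 fell (51.4%) and 5 rose (13.5%), against 15.0% and 15.9% of all genes. The count that fell was 10 without TM4 DMSO replicate 1 and 11 without TM4 MEHP replicate 3. The decoy receptor gene Bambi had 10.9, 13.8 and 10.9 CPM with MEHP and 20.6, 21.5 and 22.3 CPM with DMSO (-0.85 ± 0.13; edgeR, adjusted p = 8.35e-06). The BMP target Id1 rose by 0.61 ± 0.13, but lost its call with limma-voom after quantile normalization (0.46, adjusted p = 0.0602). The inhibin gene Inha rose by 0.69 ± 0.18 but lost its call without TM4 MEHP replicate 3 (edgeR, adjusted p = 0.0525). Of 16 insulin-like growth factor genes 8 fell and 1 rose, with a median of -0.29. Irs1, the adaptor of the insulin receptor, had 12.6, 11.3 and 8.50 CPM with MEHP and 23.5, 22.1 and 18.7 CPM with DMSO (-0.99 ± 0.12), and the receptor Igf1r fell by 0.51 ± 0.06. The riser was Stc2, whose product blocks a protease of the growth factor's binding proteins and which is also an ATF4 target, at 0.75 ± 0.10. Among 22 feedback genes of MAPK signalling 9 fell (40.9%) and 3 rose (13.6%). The phosphatase gene Dusp1 had 61.3, 69.2 and 59.0 CPM with MEHP and 124, 125 and 118 CPM with DMSO (-0.96 ± 0.07). The AP-1 genes Fosl1 and Atf3 rose, at 0.88 ± 0.16 and 0.83 ± 0.10.

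Of 19 smooth muscle contractile genes 13 fell and 2 rose, with a median of -0.46. Myl9, a myosin light chain, had 57.8, 62.7 and 71.7 CPM with MEHP and 120, 108 and 132 CPM with DMSO (-0.90 ± 0.08; edgeR, adjusted p = 9.45e-09). The cytoplasmic actin gene Actg1 had 1187, 1313 and 1271 CPM with MEHP and 2319, 2417 and 2340 CPM with DMSO (-0.91 ± 0.05). The fall of the summed myoid and fibroblast markers given above moved with these genes, and its part in the result was not tested.

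Changes of cell cycle genes were small. Of 32 G2/M genes 11 fell and 1 rose, with a median of -0.11, and the number that fell was 7 without TM4 DMSO replicate 2 and 4 after quantile normalization. Plk1, a mitotic kinase, had 56.7, 71.1 and 62.9 CPM with MEHP and 74.0, 83.0 and 82.3 CPM with DMSO (-0.33 ± 0.09), and Aurka stood at -0.34 ± 0.08 with libraries that overlapped. Of 37 S phase genes 12 rose and 3 fell. The replication genes Gins2 and Rfc4 rose by 0.70 ± 0.10 and 0.68 ± 0.12, while the cyclin gene Ccne2 fell by 0.38 ± 0.14. Of 40 DNA repair genes 19 rose and 6 fell, with 10 that rose after quantile normalization. Brca2, of recombination repair, had 11.9, 7.81 and 9.82 CPM with MEHP and 5.62, 3.85 and 4.11 CPM with DMSO (1.12 ± 0.16; edgeR, adjusted p = 2.64e-06), and Ddb2, which finds ultraviolet damage, rose by 0.75 ± 0.15. The death receptor gene Fas, a p53 target, had 3.97, 4.07 and 4.13 CPM with MEHP and 8.33, 9.34 and 7.08 CPM with DMSO (-1.02 ± 0.17), and Rrm2b, another, rose by 0.77 ± 0.10. Among 39 kinesin and cilium assembly genes 13 rose and 2 fell, with 7 that rose after quantile normalization. Kif17, a ciliary motor, rose by 0.84 ± 0.22 and the transport gene Ift172 by 0.66 ± 0.09.

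NRF2 regulates genes against oxidants, and 15 of its 29 targets rose while 1 fell. Srxn1 (ENSMUSG00000032802, chromosome 2, 152105516 to 152111376), which repairs oxidized peroxiredoxin, had 43.3, 42.5 and 48.8 CPM with MEHP and 22.5, 20.5 and 26.4 CPM with DMSO (0.96 ± 0.08; edgeR, adjusted p = 2.83e-10). Hmox1, which degrades haem, had 205, 198 and 245 CPM with MEHP and 120, 115 and 127 CPM with DMSO (0.84 ± 0.07). The classical target Nqo1, at 0.87 ± 0.27, lost its call without TM4 DMSO replicate 1 or TM4 MEHP replicate 3 (edgeR, adjusted p = 0.0548 to 0.0989). Among 32 ATF4 targets of the amino acid response 19 rose and 1 fell, and 12 rose without TM4 DMSO replicate 2. The cystine carrier gene Slc7a11, on both lists, had 93.3, 81.7 and 84.6 CPM with MEHP and 46.8, 44.6 and 46.5 CPM with DMSO (0.91 ± 0.08), and the glutamine carrier gene Slc1a5 rose by 0.65 ± 0.06. The usual marker Asns stood at 0.11 ± 0.07 and did not pass (edgeR, adjusted p = 0.261), nor did Ddit3, at 0.06 ± 0.14.

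Among lipid genes, 18 of 40 peroxisome genes rose and 2 fell. Catalase (Cat) had 52.7, 55.2 and 47.5 CPM with MEHP and 35.6, 32.6 and 34.6 CPM with DMSO (0.60 ± 0.07; edgeR, adjusted p = 2.07e-07), and Amacr, which readies branched fatty acids, rose by 0.76 ± 0.15. Of 24 cholesterol genes 10 fell and 5 rose, with 5 that fell after quantile normalization. The synthesis gene Hmgcs1 fell by 0.44 ± 0.06, put at -0.27 after quantile normalization, while Pmvk, later in the same route, rose by 0.57 ± 0.08. For iron, the uptake receptor gene Tfrc fell by 0.71 ± 0.11 and the exporter gene Slc40a1 rose by 0.95 ± 0.24. Steroidogenesis genes, 10 of them tested, held 1 that rose and 0 that fell.

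The last comparison asked where the response of TM4 differed from that of TM3. The test of the difference (edgeR, TM4 minus TM3, adjusted p under 0.05) called 4134 genes, or 26.3% of those tested, 2044 more positive in TM4 (13.0%) and 2090 more negative (13.3%). Of the TM4 calls 21.8% were called in TM3 as well, which is 40.9% of the 2585 TM3 calls (16.5% of all genes; 9.04% rose and 7.43% fell). Of these 1057 shared genes 239 rose in both lines, 239 fell in both, 214 rose in TM4 and fell in TM3, and 365 fell in TM4 and rose in TM3. The lines had no library in common.

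The mitotic genes stood apart by this test. Of the 32 G2/M genes 31 responded more negatively in TM4 and 0 more positively, with medians of -0.11 in TM4 and 0.50 in TM3. Heat shock factor targets were more negative in TM4 in 10 of 21 cases and more positive in 1 (medians -0.24 in TM4 and -0.04 in TM3). Hsph1 stood at -1.24 ± 0.05 in TM4 and 0.07 in TM3, a difference of -1.31 (edgeR, adjusted p = 8.89e-15). ER chaperones were more negative in 17 of 24 cases (more positive in 2), ribosome biogenesis factors more positive in 18 of 32, mitochondrial ribosomal proteins more positive in 35 of 77, interferon-stimulated genes more positive in 16 of 40 (more negative in 3), Zfp genes more positive in 71 of 340 (more negative in 21) and clock genes more negative in 9 of 21. Per2 stood at -1.02 ± 0.18 in TM4 and 0.63 in TM3 (difference -1.65; edgeR, adjusted p = 4.16e-05). Crispld2 stood at -1.39 ± 0.19 in TM4 and 0.93 in TM3 (difference -2.32). Angptl7 fell alike in direction, at -1.93 ± 0.10 in TM4 and -1.96 in TM3, and the difference of 0.02 did not pass (edgeR, adjusted p = 0.944). DNA repair genes and ATF4 targets, with medians of 0.19 and 0.25 in TM4 and 0.19 and 0.23 in TM3, had 8 and 8 members more positive in TM4 and 7 and 5 more negative.

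**Figure D5:**
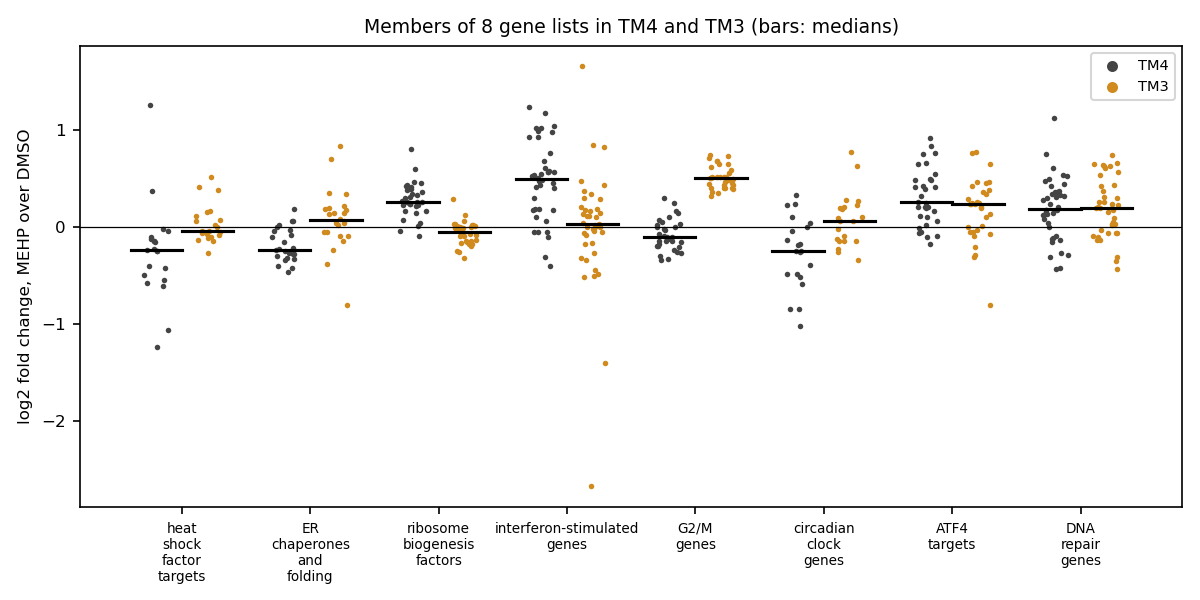
Points are members of 8 gene lists, with the log2 fold change of MEHP over DMSO in TM4 (grey, left of each pair) and TM3 (orange, right), and bars at the medians. The G2/M genes sit near -0.11 in TM4 and 0.50 in TM3, and the ATF4 and DNA repair lists have medians close together in the lines.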

How the data were processed

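RNA of 12 libraries, 6 of them TM4, was selected by poly-T beads and sequenced. The authors deposited 1 table of raw counts per gene, whole numbers without normalization. The submitters' processing notes name mm10, edgeR, DESeq2 1.20.0, StringTie 1.3.3b, HISAT2 2.0.5 and featureCounts 1.5.0-p3. The strand setting and the release of the annotation were not given in the sources used here. The cell line field says rat, but gene identifiers and the organism field are of mouse.

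Of 55004 genes 15700 passed filterByExpr and were tested (edgeR 4.0.16, R 4.3.3) by its robust quasi-likelihood test with TMM factors, in 1 fit over 12 libraries by group with 8 residual degrees of freedom. Standard errors were taken as the absolute log2 change divided by the root of the F value, and calls needed a Benjamini-Hochberg value under 0.05. The comparison and the gene lists were chosen with earlier results of these data known, so lists carry no test, and the lists described were picked after their values were seen. The text draws on genes named by rule: the 20 largest rises and falls with groups apart and 2 CPM in the higher group, the 10 largest in CPM, 5 called members a list, 10 transcription factors each way, 8 differences each way at 5 CPM or more, and markers. Other list members, and the windows shown, were chosen after their values were seen, and some genes of the rule are not reported here.

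Alternatives tried were upper-quartile or RLE factors, all genes without a filter, a filter of 1 CPM, DESeq2 1.42.0, limma-voom (limma 3.58.1), a replicate block, TM4 libraries alone, each library left out, 0.01 as the threshold and glmTreat with a fold of 1.2. Length and GC correction and quantile normalization were added after the data were seen. The procedure was tested on simulated data. Promoters are RefSeq, GRCm38.p6.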

Additional observations from a re-analysis of the deposited data

Results flagged for a closer look

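The response to MEHP differed between the lines in 4134 genes by the test of the difference (edgeR, TM4 minus TM3). Of the 55 genes named for the largest changes or differences, 42 had a called difference, and 27 of these reached 1 CPM in a group of each line, a minimum chosen after the values were seen. The other 15 lay under it in a line, where a fold change means little, and are not given.

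In 14 genes, 1 of them not reported here, the response was more positive in TM4, on the log2 scale. The lipid genes among them were Angptl4 (3.72), Fgf21 (1.46) and Pdk4 (1.45). The others were Jrk (2.31), Slc10a3 (1.71), Rpp38 (1.62), Senp8 (1.51), Zfp112 (1.34), Extl1 (1.31), Efcab11 (1.25), Prob1 (1.19), Slc35d2 (1.17) and Fendrr (1.08). Jrk, a gene related to transposases, had 2.02, 1.15 and 1.49 CPM in TM4 with MEHP and 0.379, 0.396 and 0.0632 CPM with DMSO.

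In 13 genes the response was more negative in TM4. These were Crispld2 (-2.32), Lims2 (-1.89), Fhl1 (-1.86), Thbs1 (-1.68), Ctla2a (-1.67), Acta2 (-1.57), Cxcl12 (-1.53), Prss23os (-1.32), Hsph1 (-1.31), Dcn (-1.19), Ripor2 (-1.14), Selenop (-0.91) and Peg10 (-0.82). Fhl1 and Lims2 encode LIM domain proteins. Prss23os is an antisense gene, whose reads cannot be told from those of its partner without the strand.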

How the results depend on the processing

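The 4856 genes that changed in TM4 (2503 higher, 2353 lower) were 1185 (691 and 494) with glmTreat against a fold of 1.2 and 3220 (1617 and 1603) at a threshold of 0.01. The 368 genes with at least 2-fold changes were 210 and 199, and the 4134 differences between lines 1481 and 2588. The other alternatives kept these counts within 1.5 times. With 1 library left out there were 3745 to 4673 changed genes, 1766 to 2362 higher, 1912 to 2311 lower, 300 to 374 with at least 2-fold changes and 3458 to 4388 differences between lines, while the share of the mitochondrial genome differed by -0.227 to -0.195 percentage points, of the 10 most abundant genes by -0.605 to -0.570, of long noncoding RNA by 0.0854 to 0.140, and the share of genes without counts by -0.800 to -0.508. The share of the 50 most abundant genes differed by -1.09 percentage points, that of the 10 by -0.586.

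The labels tie the replicate numbers to no batch or day. The deviations of same-numbered TM4 libraries from their group means correlated at 0.114, 0.028 and 0.12. As 1 of these lay under the 0.1 asked of every pair, the numbers were not taken as pairs. As a hint from the data, the deviations of every sample correlated best with those of its own number in the other group. The second principal component (18.1% of the variance) placed replicates 1, 2 and 3 at 22.5, 1.73 and -18.8 with MEHP and at 18.2, -2.93 and -20.7 with DMSO. With a replicate block 5029 genes changed, 2573 higher and 2456 lower. mt-Co1 was at 0.00 with limma-voom after quantile normalization, its direction lost. Of 394 named genes that passed, 150 calls were lost with glmTreat and 31 after quantile normalization. Differences between values under the limit of 3 counts were not detectable at this depth. The cause of these shifts was not tested.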
